A study of Mus musculus with 6 samples.

Results

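The genes described here encode the proteins of the large subunit of the cytosolic ribosome, measured in mouse blood platelets. They are the rows of the expression tables whose symbol is Rpl followed by a number, with or without a closing a or l, together with Rplp0, Rplp1 and Rplp2. The rule found 49 genes among 24346 symbols and used no measured value. RNA was sequenced in 3 libraries from mice homozygous for a knock-in of the R734C change in integrin β3, the β chain of the platelet fibrinogen receptor, and in 3 wild-type libraries. The knock-in libraries are labelled Homo and the wild-type ones WT, and the cell type label of all 6 is thrombocyte. No label gives the animals' strain, age or sex or a treatment. Nor is it said that each library is a mouse of its own, so the p-values measure the spread between these libraries, which may be technical.

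The values are FPKM (fragments scaled to transcript length and to the mapped fragments of the library), a level per transcript length. Changes were tested with limma on log2(FPKM + 1) over all 4859 genes with a mean of at least 1 FPKM over the 6 libraries, and a gene was called at a Benjamini-Hochberg adjusted p under 0.05. Fold changes on this scale understate the change of genes with low values. Of the 49 large-subunit genes, 44 were tested.

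Several values of the whole libraries stand beside the results below. The total FPKM was 758381 to 856863 in knock-in and 641278 to 708432 in wild-type libraries, and a rough estimate put the depth at 7850000 to 9460000 fragments in knock-in and 8750000 to 9440000 in wild-type libraries. All 10 platelet marker genes in the table passed the filter, with a summed level of 45194 to 50824 FPKM in the knock-in and 46213 to 49236 FPKM in the wild type. Of these 10, 0 were called higher and 2 lower (Itgb3 and Gp1ba), and 2 lay wholly above and 4 wholly below the wild type. Over all 4859 genes tested, 4.36% were called higher and 3.99% lower, and 14.9% lay wholly above and 15.8% wholly below. Itgb3, the knocked-in gene, averaged 859 ± 50.8 FPKM in knock-in and 1208 ± 104 FPKM in wild-type libraries (SD, n = 3 each, log2 fold change -0.49, limma adjusted p = 0.0190). The allele is a missense change, so this level does not check the labels. Globin genes summed to 174628, 24282 and 31512 FPKM in knock-in libraries 1, 2 and 3, and to 90559, 46190 and 36763 FPKM in wild-type libraries 1, 2 and 3. Replicate 1 therefore held the most globin RNA in both groups.

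The large subunit joins amino acids into protein. Its RNA core forms the peptidyl transferase centre, and its proteins brace that core, line the tunnel through which the new chain leaves, and form a flexible stalk that recruits the translation factors. Platelets have no nucleus and carry ribosomes and messenger RNA passed on by the megakaryocyte, from which they make a limited amount of protein. Fewer cells holding a transcript and less of it per cell cannot be told apart in such bulk samples. Most ribosomal protein genes start transcription within a stretch of pyrimidines, so that their mRNAs open with a terminal oligopyrimidine tract, the element through which mTOR signalling controls their translation.

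Start regions of members that rose in the knock-in are shown because the pyrimidine stretch and the hexamer CGGAAG, a core recognised by ETS factors such as GABP, are frequent in this family. Each covers 40 bases before and 20 bases after the annotated start on the gene's own strand, from RefSeq on GRCm38.p6, with capitals marking runs of at least 8 pyrimidines (C or T) and the letters CGGAAG.
Rpl4, chr9:64173347-64173406, plus strand: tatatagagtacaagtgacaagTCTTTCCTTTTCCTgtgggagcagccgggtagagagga
Rpl13, chr8:123102310-123102369, plus strand: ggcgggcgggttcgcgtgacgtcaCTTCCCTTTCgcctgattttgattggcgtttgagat
Rpl37, chr15:5116573-5116632, plus strand: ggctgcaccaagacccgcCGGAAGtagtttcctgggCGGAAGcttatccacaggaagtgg
Rpl41, chr10:128549149-128549208, minus strand: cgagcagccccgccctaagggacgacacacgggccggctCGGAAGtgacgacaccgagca
The run of Rpl4 is 14 bases long and that of Rpl13 is 10 bases long. Neither of the other windows holds a run of 8 within the bases shown. Rpl37 has a run of 11 bases within 40 bases of the start, past the printed part. For Rpl41 the longest run within 40 bases is 4.

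Over the whole family, 37 members had a start region in RefSeq, with 44 windows because some have more than 1 start. A run of at least 8 pyrimidines on the gene's strand lay within 40 bases of the start in 33 of the 44 windows (75%), against 26.96% of the windows of all tested genes. CGGAAG, or CTTCCG on the other strand, lay in the 300 bases from 250 before to 50 after the start in 24 of the 44 windows (54.55%), against 32.96% of the windows of all tested genes. CTTCC can lie inside a pyrimidine run, so matches of these motifs can overlap. Of the 10 members called higher in the knock-in, 7 had a window, and 5 of those 7 held such a run. Among 32 tested members with a window, the log2 fold change and the length of the longest run had a Pearson r of 0.10 and a Spearman rho of 0.14, over genes that share the same 6 libraries.

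The levels of the large-subunit genes were very uneven, although their proteins are each present once or a few times in a ribosome. Among the 44 tested genes, the highest mean level was 1274.5 times the lowest. The lowest was that of Rpl10a, which rested on about 6.7 fragments per library by the rough estimate. Only 3 averaged at least 100 FPKM over the 6 libraries, 21 lay between 10 and 100 FPKM, and 20 between 1 and 10 FPKM. The level and the length of the coding sequence had a Pearson r of -0.30 and a Spearman rho of -0.30 over the 44 genes, which share libraries and a scale that divides by length.

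Rpl41 stood above all other members. It encodes the smallest ribosomal protein, a very basic peptide at the interface between the subunits. It lies on chromosome 10 at 128548114 to 128549305 on the minus strand in GENCODE M21, on the GRCm38 (mm10) assembly. Its coding sequence in that annotation is printed whole to show how small it is, at 78 bases or 26 codons, with the start and stop codons in capitals.
Rpl41: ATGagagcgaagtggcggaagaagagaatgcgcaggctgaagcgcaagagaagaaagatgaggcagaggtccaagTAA
Its level was 1441, 1781 and 1747 FPKM in knock-in libraries 1, 2 and 3, against 1015, 1006 and 954 FPKM in wild-type libraries 1, 2 and 3. The knock-in libraries lay above every wild-type library. Rpl41 averaged 1656 ± 187 FPKM in the knock-in and 992 ± 32.9 FPKM in the wild type (SD, n = 3 each), and it rose by a log2 fold change of 0.73 (SE 0.10, limma adjusted p = 0.00846). After removal of a trend of the values with transcript length, its log2 fold change was 0.40 and it was not called (limma adjusted p = 0.0515). Over all 6 libraries its mean was 8.91 times that of the next member, Rplp1, and it ranked 77th of all symbols.

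**Figure D1:**
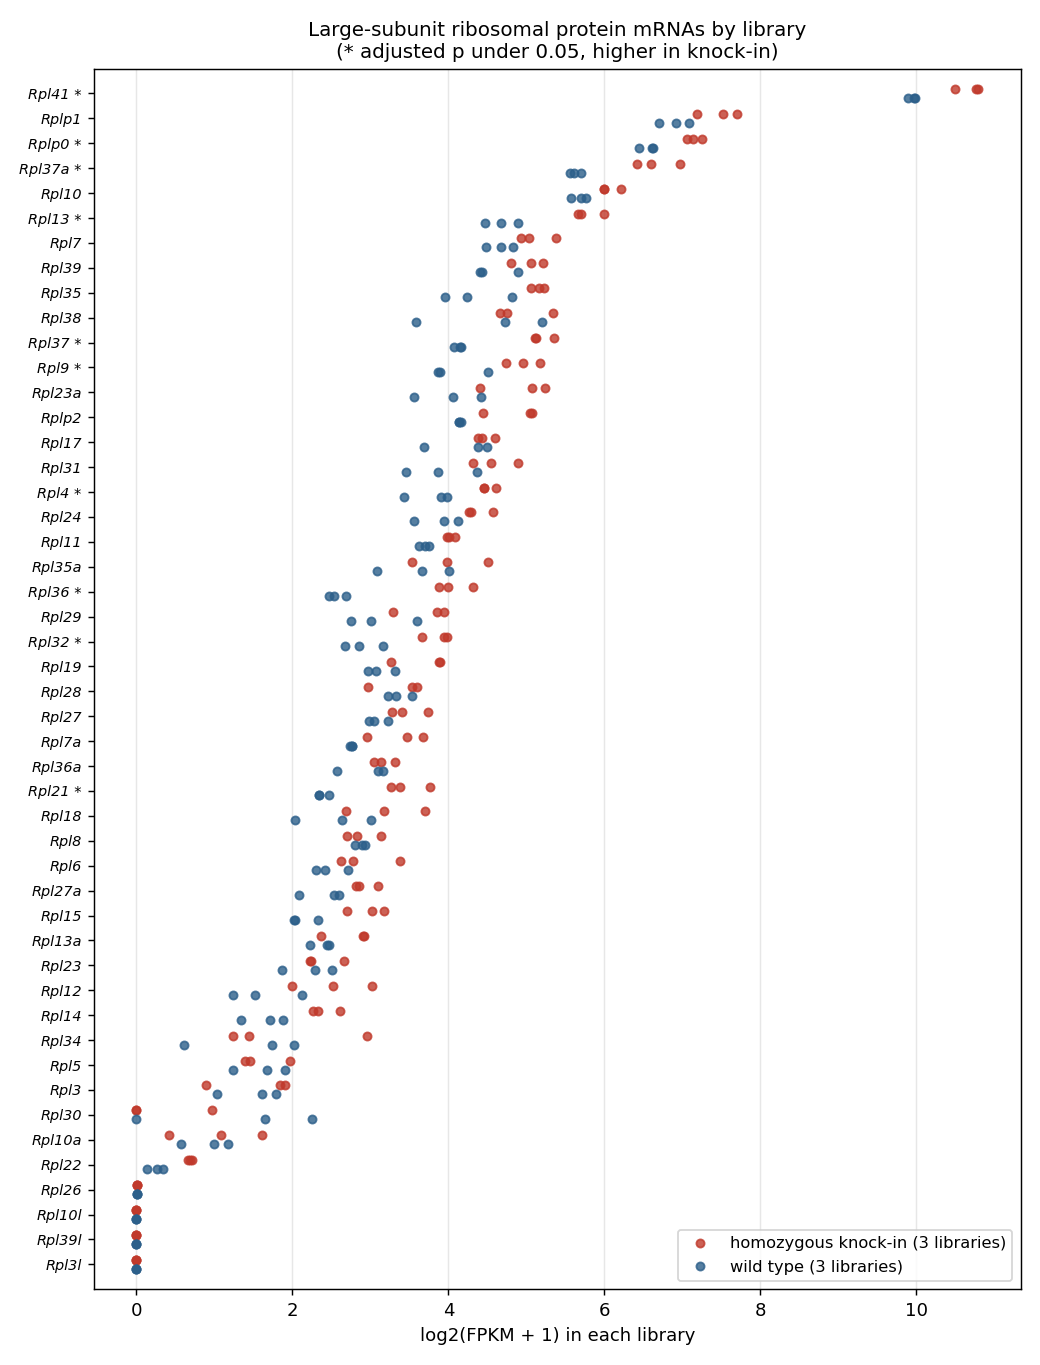
Levels of 48 of the 49 large-subunit genes in each library as log2(FPKM + 1), with the genes ordered by their mean, knock-in (Homo) points just over wild-type (WT) points in each row, and asterisks on called genes. Rpl41 stands alone at the top, and 5 genes lie under the filter at the other end.

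Below Rpl41, the next genes in level belong to the P stalk and the body of the subunit, and Rplp1, Rplp0, Rpl37a, Rpl13 and Rpl35 are given with their changes further on. Rpl10, whose protein joins the subunit last and completes its active site, had 73.0, 63.0 and 63.0 FPKM in the knock-in and 46.8, 53.5 and 51.0 FPKM in the wild type. The libraries of the groups did not overlap, but the difference was not called (log2 fold change 0.39, SE 0.12, limma adjusted p = 0.0830).

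Rpl7 had 40.6, 29.4 and 31.8 FPKM in knock-in libraries, against 27.3, 21.4 and 24.7 FPKM in wild-type libraries (log2 fold change 0.45, limma adjusted p = 0.130). Rpl39, a tunnel-lining protein, had 36.2, 27.0 and 32.3 FPKM in knock-in libraries, against 28.7, 20.5 and 20.1 FPKM in wild-type libraries (log2 fold change 0.45, limma adjusted p = 0.163). Rpl7 did not overlap between the groups, whereas for Rpl39 wild-type library 1 lay above knock-in library 2.

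At the low end, 3 members were listed at 0 in all 6 libraries. They are the paralogs Rpl3l, known from heart and skeletal muscle, and Rpl10l and Rpl39l, known from testis. An exact 0 may also mean that the estimate failed, so it is given only as listed. The remaining 46 members were above 0 in at least 1 library and 45 in all 6.

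Some core components were close to 0 as well. Rpl26, a protein of the tunnel exit, was at 0.00092, 0.00076 and 0.00065 FPKM in the knock-in and at 0.00065, 0.00087 and 0.00079 FPKM in the wild type. By the rough estimate this rounds to 0.0 fragments per library. The values of Rpl26 are therefore given only as listed, although it counts among the 45 members above 0 in all 6 libraries. The other proteins of that site, described further on, were measured at far higher levels. In the GENCODE transcripts, 61.0% of the 50-base words of Rpl26 also occur in other genes, 12 of them in all, and how fragments shared between such copies were assigned is not given in the sources used here.

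Rpl30, which in mammals also takes part in the decoding of selenocysteine, was listed at 0, 0 and 0.960 FPKM in knock-in libraries 1, 2 and 3, against 3.76, 0 and 2.13 FPKM in wild-type libraries 1, 2 and 3. It had the lowest log2 fold change of the tested members, at -0.98 (SE 0.57, limma adjusted p = 0.333), and was not called. The groups overlapped, and the mean level corresponds to about 9.0 fragments per library. Rpl10a was as low, at 1.13, 0.331 and 2.04 FPKM in the knock-in and 0.994, 1.26 and 0.486 FPKM in the wild type. It rested on about 6.7 fragments per library, and 88.1% of its 50-base words also occur in other genes. Both genes passed the filter through 1 group, since the knock-in mean of Rpl30 and the wild-type mean of Rpl10a were under 1 FPKM.

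Rpl3, which reaches toward the peptidyl transferase centre, had 2.75, 2.60 and 0.851 FPKM in knock-in and 2.06, 2.47 and 1.05 FPKM in wild-type libraries, with replicate 3 lowest in both groups. The log2 fold change of Rpl3 was 0.06, with an SE of 0.35 (limma adjusted p = 0.937).

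Rpl22, which in mouse can be replaced by its paralog Rpl22l1, fell under the filter, with 0.604, 0.585 and 0.641 FPKM in the knock-in and 0.267, 0.197 and 0.101 FPKM in the wild type. Its libraries did not overlap, and it was not tested.

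Processed copies scattered through the genome bear on these levels. The median member shared 43.9% of its 50-base words with the transcript of another gene, against a median of 0% over all tested genes. At least 50% was shared by 20 of the 49 members and by 4.43% of the tested genes. Rpl7a shared words with 120 genes, of which 119 are annotated as pseudogenes. Rpl34 shows how a table can split such a family. It had 1.72, 1.35 and 6.80 FPKM in the knock-in and 0.526, 2.35 and 3.05 FPKM in the wild type, while the row named Rpl34-ps1 had 32.3, 15.8 and 11.6 FPKM in the knock-in and 23.6, 13.3 and 17.0 FPKM in the wild type. Values of members with many copies are therefore uncertain. Among tested members that shared at least 50% of their words, 3 of 19 were called higher with a median log2 fold change of 0.45. Of those that shared less, 7 of 25 were called higher with a median of 0.63. The share called higher over all genes tested was 4.36%. Rpl34 was chosen for description after its values were seen.

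Summed over the 49 members, the level was 2543, 2887 and 2926 FPKM in knock-in libraries 1, 2 and 3, against 1745, 1698 and 1689 FPKM in wild-type libraries 1, 2 and 3. The knock-in sum averaged 2786 ± 211 FPKM and the wild-type sum 1711 ± 30.0 FPKM (SD, n = 3 each), a ratio of 1.63. Rpl41 made up 56.7 to 61.7% of the sum in knock-in and 56.5 to 59.3% in wild-type libraries. Without Rpl41, a step added after the data were seen, the sums were 1102, 1107 and 1179 FPKM in the knock-in and 730, 692 and 734 FPKM in the wild type, a ratio of 1.57.

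As a share of the library's total FPKM, the members held 0.297, 0.381 and 0.375% in the knock-in and 0.246, 0.265 and 0.262% in the wild type, a ratio of 1.36 between the means. The lowest knock-in share was in library 1, which had the highest globin sum. In absolute FPKM and as a share, each knock-in library lay above each wild-type library. The member of median level was also higher in each knock-in library, at 11.7, 13.5 and 11.99 FPKM in knock-in and 7.92, 7.56 and 7.02 FPKM in wild-type libraries. No p is given for these sums.

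**Figure D2:**
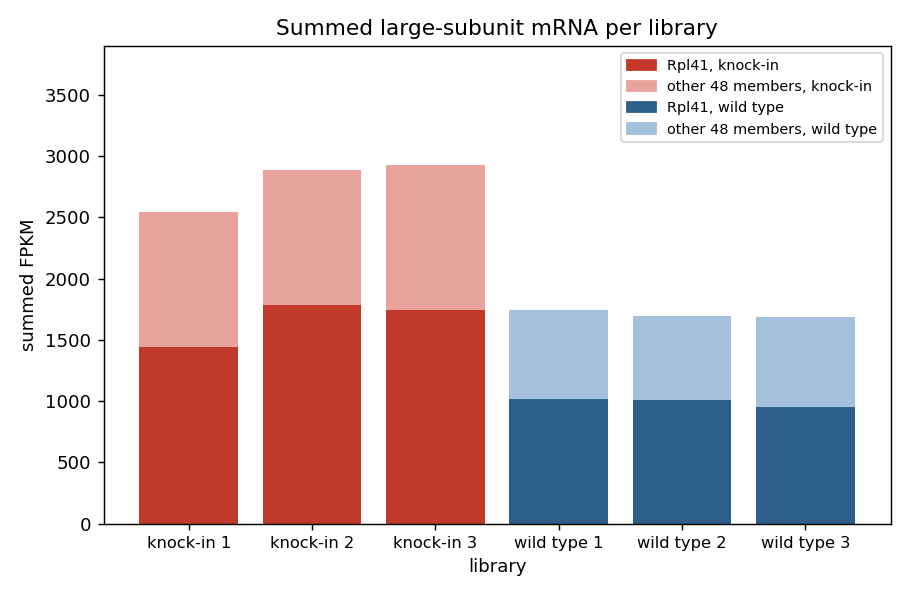
Summed FPKM of the 49 large-subunit genes in each library, knock-in (Homo) left of wild type (WT), split into Rpl41 and the other 48 members. The 3 knock-in sums lie between 2543 and 2926 FPKM, all above the wild-type sums, and the ratio between the groups is 1.57 for the part without Rpl41.

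Between the groups, 10 of the 44 tested members were higher in the knock-in and 0 were lower by limma's adjusted p. That is 22.7% called higher, against a background of 4.36% higher among all 4859 genes tested, where 3.99% were lower and 8.36% passed in either direction. At an unadjusted p under 0.05 there were 27 members, all of them with a positive log2 fold change, against a background of 12.5% higher and 25.4% in either direction among all genes tested. The log2 fold change was above 0 in 42 of the 44 members, against 48.5% of all genes tested. The knock-in libraries lay wholly above the wild-type libraries for 23 members, or 52.3% (background 14.9%), and wholly below for 0 members (background 15.8%). The median log2 fold change of the members was 0.54, with quartiles at 0.38 and 0.77, against -0.01 over all genes tested. The ratio of the group means of FPKM + 1 reached 2-fold upward for 5 members (background 1.44%) and downward for 1, Rpl30 (background 1.67%). The count called moved with single libraries, as did the calls over all genes. Without knock-in library 3 it was 0, where 0 genes of the whole table were called and 19 members and 994 genes had an unadjusted p under 0.05. Without wild-type library 2 it was 3, with 26 genes of the whole table called higher and 15 lower. It was 5 without wild-type library 3 (58 genes higher and 55 lower) and 6 without knock-in library 2 (38 higher and 47 lower). Without the variance trend it was also 0, as over all genes.

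**Figure D3:**
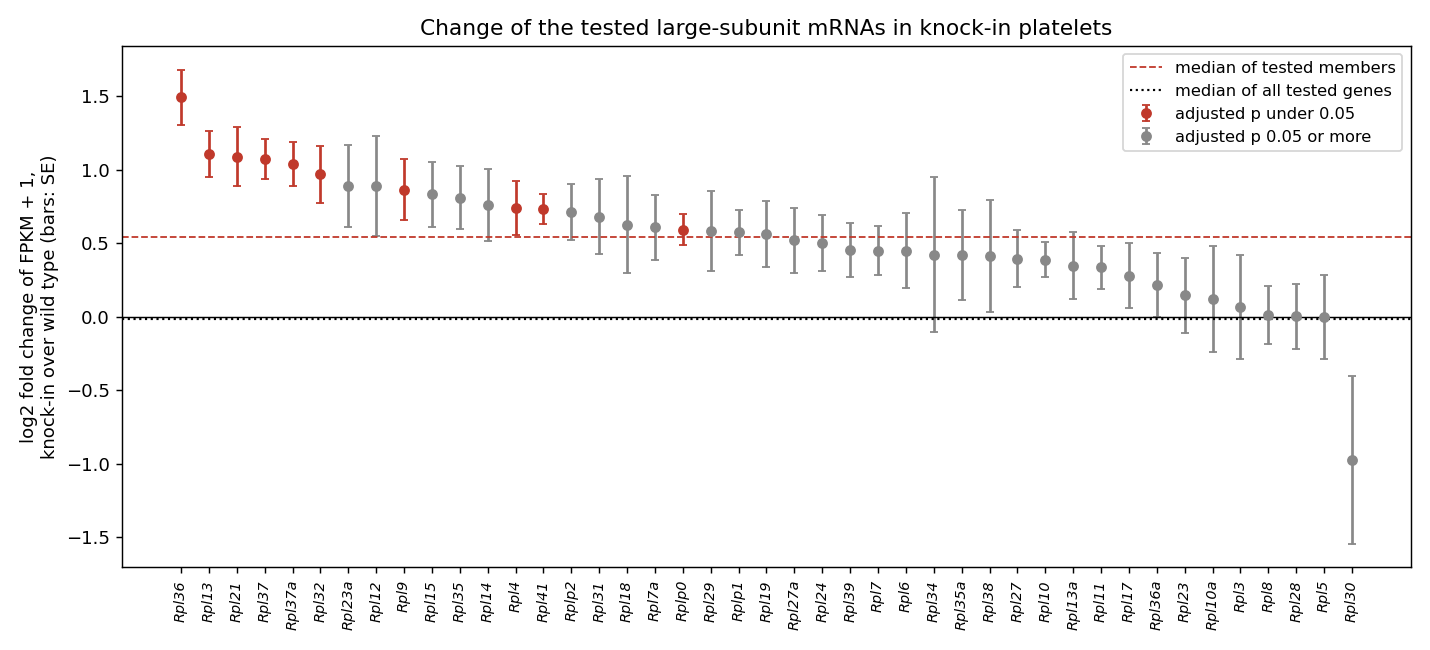
Log2 fold change of FPKM + 1, knock-in (Homo) over wild type (WT), with its SE from limma for 43 of the 44 tested large-subunit genes, in order of size and with called genes marked. Almost all points lie above 0, between Rpl36 at 1.49 on the left and Rpl5 near 0, and Rpl30 at -0.98 has the widest error bar.

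In the P stalk 1 of 4 genes was called higher (4.36% of all genes tested). The scaffold Rplp0 carries pairs of the acidic proteins Rplp1 and Rplp2, whose tails draw in elongation factors, and Rpl12 sits at its base. Rplp0, on chromosome 5 at 115559467 to 115563727, had 140, 133 and 151 FPKM in the knock-in and 86.3, 97.7 and 96.6 FPKM in the wild type. It averaged 141 ± 9.31 FPKM in knock-in and 93.6 ± 6.31 FPKM in wild-type libraries and was the only stalk gene called, at a log2 fold change of 0.59 (SE 0.11, limma adjusted p = 0.0153).

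Rplp1 had 145, 182 and 208 FPKM in the knock-in and 103, 120 and 134 FPKM in the wild type (log2 fold change 0.57, limma adjusted p = 0.0580). Rplp2 had 32.6, 20.8 and 32.2 FPKM in the knock-in and 16.5, 16.9 and 16.6 FPKM in the wild type (log2 fold change 0.71, limma adjusted p = 0.0554). Both lay wholly above the wild type and missed the threshold. Rpl12 had 2.97, 7.14 and 4.75 FPKM in knock-in and 3.34, 1.36 and 1.87 FPKM in wild-type libraries, which overlapped (log2 fold change 0.89, limma adjusted p = 0.145). All 4 had an unadjusted p under 0.05, which 25.4% of all genes tested had, and their median log2 fold change was 0.65.

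Neither protein of the 5S RNA particle was called, and 1 of the 2 had an unadjusted p under 0.05 (25.4% of all genes tested). Rpl5 and Rpl11 bind the 5S RNA and, when free, bind the p53 regulator MDM2. Rpl11 had 15.9, 14.8 and 15.1 FPKM in knock-in libraries, above the 12.5, 11.3 and 11.9 FPKM of wild-type libraries (log2 fold change 0.34, SE 0.15, limma adjusted p = 0.195). Rpl5 had 1.62, 2.91 and 1.74 FPKM in knock-in and 2.75, 1.36 and 2.19 FPKM in wild-type libraries, with a log2 fold change of -0.00090 (SE 0.29, limma adjusted p = 0.999).

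At the tunnel exit, where the signal recognition particle and nascent chain factors dock, 5 of 6 proteins were tested (Rpl17, Rpl19, Rpl23a, Rpl31 and Rpl35) and 0 were called by limma, with 4 of the 5 at an unadjusted p under 0.05 (25.4% of all genes tested). Their median log2 fold change was 0.68. Rpl35 had 36.3, 34.9 and 32.3 FPKM in the knock-in and 14.6, 27.2 and 17.9 FPKM in the wild type without overlap (log2 fold change 0.81, limma adjusted p = 0.0554). Rpl23a, with a log2 fold change of 0.89 (SE 0.28, limma adjusted p = 0.0853), had the highest log2 fold change among the members not called, and knock-in library 1 at 20.1 FPKM lay just under wild-type library 1 at 20.4 FPKM. It was chosen for description after its values were seen.

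The highest log2 fold change of the 44 tested members was that of Rpl36. This gene, on chromosome 17 at 56613416 to 56614243, encodes a protein of the eukaryotic or archaeal families without a bacterial counterpart. It had 19.0, 13.7 and 14.9 FPKM in the knock-in and 4.56, 4.81 and 5.46 FPKM in the wild type. The means were 15.8 ± 2.78 FPKM in the knock-in and 4.94 ± 0.466 FPKM in the wild type, with a log2 fold change of 1.49 (SE 0.19, limma adjusted p = 0.00759). This gene shared 81.1% of its 50-base words with other transcripts and rested on about 35.4 fragments per library.

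Rpl37 and Rpl37a encode zinc-binding proteins. Rpl37 had 33.5, 34.0 and 39.9 FPKM in knock-in and 16.7, 16.9 and 15.8 FPKM in wild-type libraries, a log2 fold change of 1.07 (SE 0.14, limma adjusted p = 0.00759). Rpl37a had 84.9, 124 and 95.8 FPKM in knock-in and 46.1, 47.8 and 51.2 FPKM in wild-type libraries, a log2 fold change of 1.04 (SE 0.15, limma adjusted p = 0.00969). In both genes the wild-type libraries stood close together and every knock-in library lay far above them.

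Rpl13, another member of the eukaryotic or archaeal families, had 63.0, 51.2 and 49.6 FPKM in the knock-in and 28.7, 21.2 and 24.6 FPKM in the wild type. It averaged 54.6 ± 7.33 FPKM in the knock-in and 24.8 ± 3.75 FPKM in the wild type (SD, n = 3 each), a log2 fold change of 1.11 (SE 0.16, limma adjusted p = 0.00898). Rpl21 had 8.62, 12.6 and 9.42 FPKM in the knock-in and 4.53, 4.05 and 4.06 FPKM in the wild type (log2 fold change 1.09, SE 0.20, limma adjusted p = 0.0167). Rpl21 is among the members with the most copies, sharing words with 82 other genes. Rpl32 had 11.7, 14.8 and 14.4 FPKM in the knock-in and 7.92, 6.20 and 5.40 FPKM in the wild type (log2 fold change 0.97, SE 0.20, limma adjusted p = 0.0227). After removal of the length trend the log2 fold change of Rpl32 was 0.62 and it was not called (limma adjusted p = 0.105). Its exons overlap Cand2 on the other strand, and the library kit does not mark strand.

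Rpl9 and Rpl4 were the called members closest to the threshold. Rpl4, whose long loop reaches into the wall of the tunnel, had 21.1, 21.02 and 23.5 FPKM in the knock-in and 14.0, 9.78 and 14.8 FPKM in the wild type (log2 fold change 0.74, SE 0.18, limma adjusted p = 0.0438). Rpl9 had 30.2, 25.8 and 35.1 FPKM in the knock-in and 13.9, 21.9 and 13.6 FPKM in the wild type (log2 fold change 0.87, SE 0.21, limma adjusted p = 0.0411). After removal of the length trend neither was called, with log2 fold changes of 0.73 for Rpl4 and 0.60 for Rpl9. Wild-type library 2 was the highest of its group for Rpl9 and the lowest for Rpl4. Rpl9 shared 93.3% of its 50-base words with other transcripts, the highest share of all members.

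Of the 34 tested members that were not called, 17 had an unadjusted p under 0.05, with log2 fold changes of 0.34 to 0.89. Of the same 34, 13 lay wholly above the wild type. Over all genes tested, called or not, 25.4% had such a p (12.5% with a higher level), and 14.9% lay wholly above. The members not called that are not given library by library include 17 others, some with an unadjusted p under 0.05 and some without (Rpl6, Rpl7a, Rpl13a, Rpl14, Rpl15, Rpl17, Rpl18, Rpl19, Rpl23, Rpl24, Rpl27, Rpl27a, Rpl29, Rpl31, Rpl35a, Rpl36a and Rpl38). They had mean levels between 3.24 FPKM for Rpl14 and 27.1 FPKM for Rpl38, and log2 fold changes between 0.15 for Rpl23 and 0.83 for Rpl15. Others were close to no difference. Rpl8, which lies beside the peptidyl transferase centre, had 6.07, 5.50 and 7.77 FPKM in knock-in and 5.99, 6.42 and 6.63 FPKM in wild-type libraries (log2 fold change 0.0089, SE 0.20, limma adjusted p = 0.987). Rpl28, which baker's yeast lacks, had 6.82, 10.6 and 11.1 FPKM in knock-in and 10.6, 8.38 and 9.01 FPKM in wild-type libraries (log2 fold change 0.0014, SE 0.22, limma adjusted p = 0.998). These genes were chosen for description after their values were seen. At an SE of about 0.20 the data do not separate them from small changes in either direction.

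Grouped by evolutionary family, 3 of 17 tested proteins shared with bacteria were called higher, with a median log2 fold change of 0.39. Of 25 tested proteins of the eukaryotic or archaeal families, 7 were called higher, with a median of 0.58. The share called higher over all genes tested was 4.36%. The members were scattered over 18 chromosomes, with at most 6 on one of them (chromosome 11). Genes for small nucleolar RNAs lie in the introns of 20 members, and 5 of these 20 were called against 5 of the other 24 tested members. The medians of the log2 fold change were 0.49 with and 0.57 without such a guest gene.

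The called members had more fragments behind them. The 10 called members had a median of 216 fragments per library by the rough estimate, and the 34 others 65.9 fragments. Over the 44 members the log2 fold change and the log2 mean level had a Pearson r of 0.41 and a Spearman rho of 0.38, from the same 6 libraries and the same sampling depth.

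Transcript length moved with the comparison as a whole. The tested members had a median transcript of 853 bases, against 2541.5 bases over all tested genes with a transcript in the annotation. Over those 4694 genes the log2 fold change and the length had a Spearman rho of -0.21 and a Pearson r of -0.15, across genes that are not independent. Among the 498 other tested genes with a transcript under 1000 bases, 75 (15.06%) were called higher and 8 lower, with a median log2 fold change of 0.29. The 27 members under 1000 bases had a median of 0.56 with 7 called, and the 17 longer members a median of 0.52 with 3 called. When a length trend was removed from each library, 6 members were called and the median over the 44 came to 0.35. The part of length in the members' change was not tested beyond this.

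**Figure D4:**
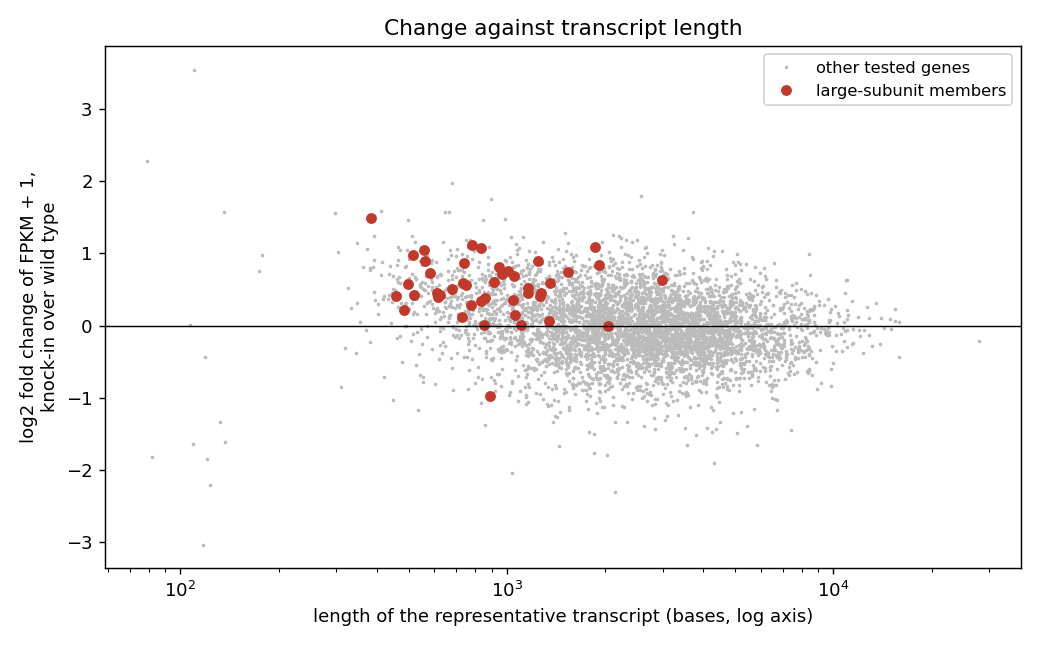
Log2 fold change of FPKM + 1, knock-in (Homo) over wild type (WT), against transcript length in bases on a log axis for the tested genes, with the large-subunit genes in red. The members lie mostly above 0 at short and at longer transcript lengths, and the cloud of all genes tilts downward with length, at a Spearman rho of -0.21.

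RNA of other blood cells was present at different levels. Of 10 erythroid markers in the table, 8 were tested and 0 were called by limma (0 at an unadjusted p under 0.05), with sums of 179923, 24684 and 32146 FPKM in the knock-in and 93411, 47597 and 37727 FPKM in the wild type. Without the library of each group with the most globin, replicate 1 in both, 13 members were called higher and the ratio of the summed FPKM was 1.72. Neutrophil markers summed to 0.507 to 1.73 FPKM in the knock-in and 0.0438 to 2.28 FPKM in the wild type. The markers of T and NK cells summed to 5.02 to 8.83 FPKM in knock-in and 2.67 to 4.42 FPKM in wild-type libraries, with Cd3d and Cd3e listed at 0 in all 6. B cell markers summed to 0.196 to 0.693 FPKM in knock-in and 0 to 0.185 FPKM in wild-type libraries, with Ms4a1 and Pax5 listed at 0 in all 6. The sums of the lymphocyte markers were higher in every knock-in library, and their part in the result was not tested. Of 8 monocyte markers only Lyz2 was tested, at 7205 to 9127 FPKM in knock-in and 7033 to 8240 FPKM in wild-type libraries. The rest of that list was near 0. Its highest mean over the 6 libraries was 0.258 FPKM, for Csf1r, and Cx3cr1 was listed at 0 in all 6. The level of Lyz2 alone is therefore not read as an amount of monocyte RNA.

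The partner subunit and the factors around the ribosome give the setting. Of 33 small-subunit protein genes 32 were tested, and 9 were called higher and 0 lower by limma (4.36% and 3.99% of all genes tested). An unadjusted p under 0.05 was found for 19 of the 32 (25.4% of all genes tested), and their median log2 fold change was 0.62. The 33 genes summed to 707, 775 and 788 FPKM in the knock-in and 469, 450 and 503 FPKM in the wild type. Rps19, the gene most often mutated in Diamond-Blackfan anaemia, averaged 21.4 ± 1.25 FPKM in knock-in and 9.05 ± 2.59 FPKM in wild-type libraries (log2 fold change 1.19, limma adjusted p = 0.0137).

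Genes that act beside the ribosome in elongation and in its assembly were counted in the same way. Of 9 tested elongation factors and associated genes, 1 was called higher and 0 lower by limma (4.36% and 3.99% of all genes tested). An unadjusted p under 0.05 was found for 3 of the 9 (25.4% of all genes tested). The median log2 fold change of the 9 was 0.16. The called gene was Tpt1, at 286 ± 14.7 FPKM in knock-in and 170 ± 12.5 FPKM in wild-type libraries (log2 fold change 0.74, limma adjusted p = 0.00787). Of 27 assembly factors of the large subunit, which act in the nucleolus and nucleus, 22 were above 0 in some library and 4 were tested, with a median log2 fold change of -0.30. By limma's adjusted p 0 of these 4 were called, and 1 had an unadjusted p under 0.05 (25.4% of all genes tested). Nothing is called particular to the large subunit from these counts.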

How the data were processed

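RNA was measured in 6 libraries, grouped and numbered by their titles. Per the labels' protocols, RNA was taken with TRIzol and a miRNeasy Micro kit, and cDNA made with SMART-Seq HT was built into Nextera XT libraries, which keep no strand. The authors deposited FPKM per gene symbol. The submitters' processing notes name Cuffdiff 2.2.1, TopHat2 2.1.1 with Bowtie2 2.2.8, SAMtools 0.1.18 and build mm10. The annotation and settings are not given in the sources used here.

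FPKM were used without further scaling. Depth relative to wild-type library 1 was read from the steps between low values (0.882 to 1.05), and rough fragment numbers come from 27 to 38 genes per library in a window chosen after the values were seen. Limma 3.58.1 (R 4.3.3) was run on log2(FPKM + 1) for genes with a mean of at least 1 FPKM, with group as the only term. It used a variance trend, two-sided tests and Benjamini-Hochberg adjustment over all genes tested. On simulated data it recovered 28 of 100 genes with a log2 change of 0.5, with 5 false calls, so most such changes were missed. At a log2 change of 1 it recovered 80 of 100, with 5 false calls. Exact permutation of 3 against 3 libraries cannot go below p = 0.1. Transcripts, words of 50 bases and coordinates come from GENCODE M21, and start regions from RefSeq. The longest pyrimidine run was sought on the gene's strand.

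Members named with all values are those called, the 10 highest, the 5 lowest above 0, those listed at 0, the P stalk with Rpl12, and Rpl5 with Rpl11. Some single genes, 1 member among them, are not reported here but stay in the tests, counts and sums. The members and lists were chosen with earlier results of these data known. Alternatives covered pseudocount, filter, scaling, variance trend, weights, length, replicate block and left-out libraries.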

Additional observations from a re-analysis of the deposited data

How the results depend on the processing

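The count of members called higher (10, with 0 lower) was 6 with no filter on low values, 0 without the variance trend, where 26 members had an unadjusted p under 0.05, and 6 after removal of the length trend. Over all genes the calls higher were 212 in the main comparison, 49 with no filter, 0 without the variance trend and 134 after length removal. With 1 library left out it ranged from 0 to 13. It was 0 without knock-in replicate 3 (19 at an unadjusted p under 0.05), where 0 genes of the whole table were called, 3 without wild-type replicate 2, 5 without wild-type replicate 3 and 6 without knock-in replicate 2. Under the other alternatives it lay between 9 and 14, and 0 members were called lower under any alternative. The median log2 fold change moved beyond the libraries' spread only after length removal, to 0.35, and ranged from 0.49 to 0.61 with 1 library left out. The ratio of summed FPKM stayed between 1.56 and 1.72. The cause of these shifts was not tested. Rpl37 and Rpl36 were called in 16 of 18 alternatives, Rpl41 in 14, Rpl4 in 9 and Rpl9 in 7. After length removal, 4 members lost their call by limma. The log2 fold change of Rpl4 was then 0.73 against 0.74 before (adjusted p = 0.0515), while that of Rpl41 was 0.40 against 0.73 (adjusted p = 0.0515), that of Rpl32 0.62 against 0.97 (adjusted p = 0.105) and that of Rpl9 0.60 against 0.87 (adjusted p = 0.141).

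The deviations of same-numbered libraries had correlations of 0.158, 0.0235 and 0.141. Each wild-type library correlated best with the knock-in library of its own number. Knock-in library 2, however, correlated best with wild-type library 3 (0.0674). Differently numbered libraries had correlations of -0.160 to 0.0674. These values do not settle whether the numbers pair the samples, and the main fit did not pair them. A fit with the replicate block called 9 members, 8 of them among the 10.

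Reversals of the log2 fold change occurred in 9 members, none of them called. With a pseudocount of 0.1 they were -0.00098 for Rpl28 and 0.0025 for Rpl5. Under median-of-ratios scaling Rpl5 was 0.0054, and under quantile normalization 0.011. Under rescaling, which moved the median of all genes to -0.06, Rpl28 was -0.052 and Rpl8 -0.042. With sample weights Rpl5 was 0.091 and Rpl3 -0.035. After length removal Rpl28 was -0.11, Rpl8 -0.20, Rpl36a -0.15, Rpl10a -0.15 and Rpl5 0.025. Without the globin-rich libraries Rpl5 was 0.26 and Rpl3 -0.049. With 1 library left out, Rpl28 ranged from -0.11 to 0.20, Rpl5 from -0.18 to 0.15, Rpl8 from -0.11 to 0.10, Rpl3 from -0.16 to 0.39, Rpl10a from -0.050 to 0.43, Rpl23 from -0.032 to 0.29, Rpl34 from -0.12 to 0.75 and Rpl38 from -0.045 to 0.76. Depth limits the low members, since 22 of the 44 tested had under 100 fragments per library by the rough estimate.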

Other observations

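Rows outside the fixed lists that share a name with ribosomal protein genes also moved, and were chosen after their values were seen. Rps27rt, whose symbol marks a retrotransposed copy of Rps27, had 46.5, 46.2 and 41.2 FPKM in knock-in and 24.1, 17.9 and 21.3 FPKM in wild-type libraries (log2 fold change 1.06, limma adjusted p = 0.00849). The row of Rps27 itself averaged 0.764 FPKM in knock-in and 1.39 FPKM in wild-type libraries (log2 fold change -0.38, limma adjusted p = 0.642). How fragments shared by these rows were assigned is not given in the sources used here. Rpl34-ps1 did not follow Rps27rt, with a log2 fold change of 0.05 (SE 0.35, limma adjusted p = 0.950).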
